A study of Drosophila melanogaster with 2 samples.

Results

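The mRNAs described here encode the proteins of the mitochondrial ribosome, and their association with ME31B was measured in mature oocytes of *Drosophila melanogaster*. Members were all genes of the deposited table whose symbol begins with mRpL or mRpS followed by a digit, which gave 72 of 16863 genes, 46 for the large subunit (mRpL) and 26 for the small subunit (mRpS). Stage 14 oocytes, the last stage before egg activation, came from a large culture of flies and were therefore pooled. The labels give the strain as eGFP-Me31B in a w1118 background, with ME31B carrying the green fluorescent protein tag, whereas the methods name w1118 flies alone. Both libraries share this genotype and stage, and differ only in that 1 was made from the input lysate and 1 from the ME31B immunoprecipitate. The methods name an anti-GFP antibody for the precipitation, while the label of the precipitate names none. A precipitate made with IgG was not used here, and each value may therefore include RNA recovered without ME31B.

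Mitochondria hold ribosomes of their own, which resemble those of bacteria and translate the few proteins encoded by mitochondrial DNA, most of them core subunits of the respiratory chain. The ribosomal RNAs are made inside the organelle, but the proteins are encoded in the nucleus, translated in the cytosol and imported. The oocyte stockpiles both mitochondria and such mRNAs for the embryo. ME31B is a DEAD-box RNA helicase that, with Trailer Hitch and Cup, blocks translation initiation on maternal mRNAs. Sequencing of bound RNA shows how much of each mRNA was recovered with it relative to its abundance.

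Values are FPKM, fragments of a gene scaled by the length of its transcript and by the size of the library. Occupancy was the ratio of FPKM after immunoprecipitation to FPKM in the input, as in the methods, taken for those 6886 genes whose FPKM exceeded 0.5 in each library. The median gene had an occupancy of 1.26. Log2 occupancies below are given relative to this median gene, so that 1 is 2-fold above it. With 1 library per condition there was no replicate check and no p-value, and the number of reads per library is unknown, so no error could be attached to a single value. Counts below take a gene as high or low when it lay 2-fold or more from the median gene. The comparisons among members below are descriptions of these 2 libraries. As a check of the labelled cells, all 10 oocyte marker genes were measured in both libraries, from 12.4 to 12458 FPKM in the input, among them *osk*, *nos* and *dhd*. Of 13 follicle cell genes, which make eggshell and yolk, 11 were above the minimum, with a sum of 871 FPKM in the input and 505 FPKM after precipitation. The sum was 46.5 and 32.8 FPKM for 7 gut genes, and 6 muscle genes reached at most 2.21 FPKM, with *Act88F* at 0 in both. The part of other cells in the members' values was not tested.

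All 72 members passed the minimum of 0.5 FPKM in both libraries. Their input values lay between 41.6 FPKM for *mRpL41* and 367 FPKM for *mRpS18A*, with a median of 94.7 FPKM, compared with 34.4 FPKM over all genes tested. Every member was thus above the typical gene in the oocyte. In the immunoprecipitate the members lay between 24.3 FPKM for *mRpL2* and 1497 FPKM for *mRpS18A*, with a median of 207 FPKM, against 42.7 FPKM over all genes. The highest and lowest members, single genes at each end, were 8.83-fold apart in the input and 61.6-fold apart in the immunoprecipitate. The members' quartiles were 75.4 and 134 FPKM in the input, and 131 and 303 FPKM in the immunoprecipitate. Over all genes tested the quartiles were 14.9 and 73.9 FPKM in the input, and 13.9 and 116 FPKM in the immunoprecipitate. Summed, the members made up 0.754% of all input FPKM and 1.64% of all immunoprecipitate FPKM. The immunoprecipitate value was the higher of the pair for 68 members, and for 4420 of the 6886 genes tested. The exceptions among members were *mRpL2*, *mRpL34*, *mRpL41* and *mRpS22*. Across the 72 genes, which are not independent replicates, input and immunoprecipitate FPKM had a Spearman rho of 0.78, and log2 occupancy and input FPKM a rho of 0.23. The latter was 0.40 over the 26 mRpS genes and 0.11 over the 46 mRpL genes.

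**Figure D1:**
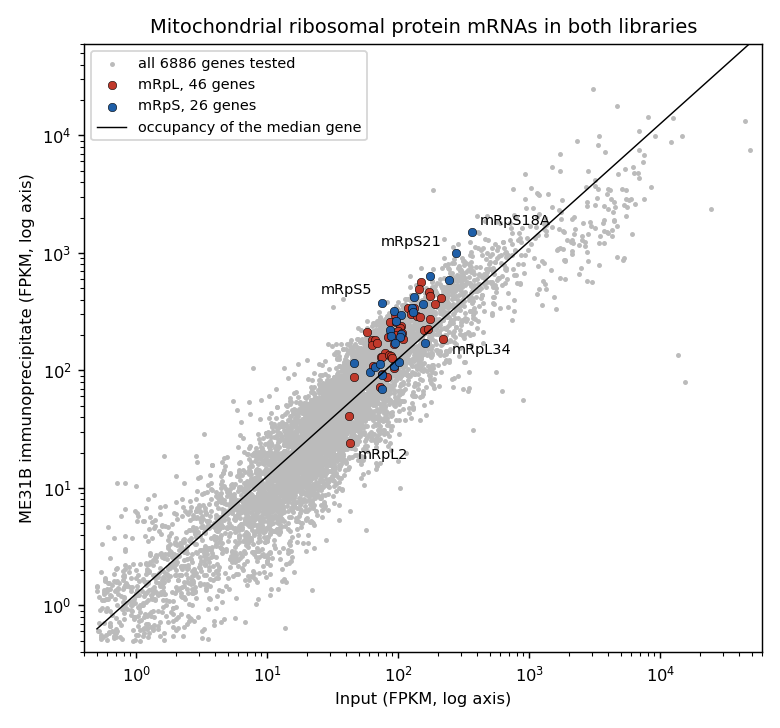
Input FPKM (x axis, log scale) against immunoprecipitate FPKM (y axis, log scale) for all genes tested (grey), mRpL genes (red) and mRpS genes (blue), with 1 library per axis. The line marks the occupancy of the median gene, and 61 of the 72 members lie above it.

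Relative to the median gene, 61 members had a higher occupancy and 11 a lower one. The median member stood at 0.74 on the log2 scale, a 1.68-fold difference, with quartiles at 0.33 and 1.07. Of the members, 23 or 31.9% reached 2-fold above the median gene, where 9.48% of all genes tested did. At least 2-fold below were 1.39% of members, the single gene *mRpL2*, compared with 15.2% of all genes. The other 48 members lay between these limits. Without centring, which raises every gene by 0.33, the counts of members were 37 above and 0 below, where 20.3% and 9.15% of all genes were. Within classes of genes of like span, described further on, they were 5 and 2, where 7.1% and 11.3% of protein-coding genes were. At a limit of 1.5-fold, 43 members were above and 2 below, where 23.8% and 26.3% of all genes were, and at 3-fold 3 were above and 0 below, where 1.79% and 5.95% of all genes were. Without the minimum FPKM and with 0.5 added to each value, 37 members were 2-fold above and 0 below, where 8.66% and 3.93% of all 16863 genes were.

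The highest occupancy among members belonged to *mRpS5*, whose bacterial counterpart sits in the body of the small subunit near the entry of the mRNA. It had 75.5 FPKM in input RNA and 371 FPKM after precipitation, and at 1.96 it was 3.90-fold above the median gene. Of all genes tested, 99.3% had a lower occupancy. In abundance it was unremarkable, ranking 53 of 72 in the input but 11 in the immunoprecipitate. The gene spans 6299 bp on chromosome arm 3L, from 24537236 to 24543534 in Release 6 coordinates, and overlaps no other annotated gene.

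*mRpS18A* was next at 1.69, from 367 FPKM in the input to 1497 FPKM in the immunoprecipitate, and ranked highest of the members in both libraries. It lies on arm 3R from 8561917 to 8562593 and overlaps no other gene. It is 1 of 3 fly genes related to bacterial S18, a small protein of the platform. The related *mRpS18B* was at 1.47, with 92.4 FPKM in input RNA and 322 FPKM after precipitation. *mRpS18C* was at 0.35, with 60.3 and 96.8 FPKM. The 3 relatives therefore differed in both respects, 6.09-fold in the input between the highest and lowest and 1.34 on the log2 scale in occupancy. In mammals the counterpart of *mRpS18A* is found in the large subunit, as is that of *mRpS30*, although both carry small-subunit names. *mRpS30* was at 0.35, with 66.8 FPKM in input RNA and 107 FPKM after precipitation.

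Among large-subunit members, *mRpL27* and *mRpL16* were highest, and the bacterial counterparts of both reach towards the peptidyl transferase centre, where peptide bonds form. *mRpL27* was at 1.59, from 148 FPKM in the input to 562 FPKM in the immunoprecipitate. *mRpL16* was at 1.56, from 57.1 to 212 FPKM. *mRpL3*, also near this centre, was at 0.99, just inside the 2-fold limit, with 68.7 and 172 FPKM. The lowest of all members had a place in the same region. *mRpL2*, whose bacterial counterpart is needed for peptidyl transferase activity, had 42.7 FPKM in input RNA and 24.3 FPKM after precipitation, and at −1.15 it was the only member 2-fold below the median gene. It lies on arm 3L from 11120847 to 11122041, and 6.36% of its span is shared with *Ufd1*, which was at −0.01. The 4 genes for proteins around this centre were grouped after their values were seen. They include both ends of the large-subunit range, so the width of their range follows from the choice.

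The stalk is the flexible arm that recruits translation factors. Its 3 measured genes were all above the median gene. *mRpL10*, the stalk's anchor, was at 1.46, with 143 FPKM in input RNA and 493 FPKM after precipitation. *mRpL12*, the stalk protein itself, was at 1.01, with 132 and 337 FPKM, and *mRpL11*, at the stalk base, at 0.75, with 93.9 and 200 FPKM. Other proteins line or surround the tunnel through which the new peptide leaves. Their genes chosen here, after the values were seen, were *mRpL4*, *mRpL17*, *mRpL22*, *mRpL23* and *mRpL24*, and the set need not be complete. All 5 were above the median gene. None was so by 2-fold, where 9.48% of all genes tested were, so this count does not set them apart. They lay between 0.07 for *mRpL23*, with 169 and 224 FPKM, and 0.90 for *mRpL22*, with 90.1 and 212 FPKM.

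The groups by place in the small subunit were chosen after their values were seen. Genes for 3 proteins of the body were each at least 2-fold above the median gene, where 9.48% of all genes tested were. Besides *mRpS5*, these were *mRpS17* at 1.33, with 132 FPKM in input RNA and 419 FPKM after precipitation, and *mRpS16* at 1.07, with 128 and 338 FPKM. The bacterial counterparts of both bind ribosomal RNA directly. *tko*, the counterpart of S12, was not in this set and was at 0.94. The genes chosen for proteins of the head, the part that swivels as tRNAs move, lay on both sides of the median gene. *mRpS7*, which in bacteria starts assembly of the head, was at 1.54, with 174 and 637 FPKM, and *mRpS10* at 0.94, with 243 and 587 FPKM. *mRpS9*, with 100.2 and 119 FPKM, was at −0.09 and *mRpS14*, with 158 and 172 FPKM, at −0.21. *mRpS24*, which also has a bacterial counterpart, was not in this set and was at 1.11. On the platform, *mRpS6*, the partner of S18 in bacteria, was at 1.00, with 45.7 and 116 FPKM, and *mRpS11* at 0.96, with 128 and 315 FPKM. *mRpS18B* and *mRpS18C*, placed in the same group, were at 1.47 and 0.35. *mRpS21*, the second most abundant member in both libraries, was at 1.52, from 277 FPKM in the input to 999 FPKM in the immunoprecipitate.

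The remaining members above the 2-fold limit were 8 large-subunit and 3 small-subunit genes. *mRpL52* was at 1.32, from 94.8 to 297 FPKM, *mRpL9* at 1.25, from 85.6 to 257 FPKM, and *mRpL21* at 1.20, from 118 to 340 FPKM. Also in this group were *mRpL40*, *mRpL55*, *mRpL14*, *mRpL13*, *mRpL50*, *mRpS23*, *mRpS24* and *mRpS2*, between 1.19 for *mRpL40* and 1.04 for *mRpS2*. *mRpL13* lies wholly within the span of CG10602, which had 170 FPKM in input RNA and 91.1 FPKM after precipitation, and reads of the 2 genes may have been assigned to either.

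Between the median gene and the 2-fold limit lay 38 members, 28 of the large subunit and 10 of the small. Those closest to the limit were *mRpL3*, *mRpS11* and *mRpL54*, from 0.99 to 0.96. *mRpL54* was also abundant, with 175 FPKM in the input and 428 FPKM bound. *mRpS33* was at 0.92, with 153 and 366 FPKM. Nearer to the median gene, *mRpS29*, whose mammalian counterpart is the GTP-binding protein DAP3, had 71.7 and 113 FPKM and was at 0.32. *mRpL49* and *mRpL30*, both well represented in the input, stood at 0.33 and 0.15, with 174 and 276 FPKM for *mRpL49* and 157 and 219 FPKM for *mRpL30*. Members of similar input level, such as *mRpS7*, *mRpL54* and *mRpL49* with 174, 175 and 174 FPKM, therefore differed in the bound fraction, at 637, 428 and 276 FPKM.

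Below the median gene, *mRpL2* was followed by *mRpL34*, one of the most abundant members in the input. *mRpL34*, the counterpart of a very small bacterial protein, had 219 FPKM in input RNA and 183 FPKM after precipitation, and stood at −0.59. It ranked 4 of 72 in the input and 43 in the immunoprecipitate, a shift opposite to that of *mRpS5*. Its span of 390 bp is the shortest of the members. *mRpS22*, which has no bacterial counterpart, was at −0.44, with 75.4 and 70.1 FPKM. *mRpL41*, the least abundant member, was at −0.35, with 41.6 and 41.0 FPKM. *mRpL38*, whose protein resembles phosphatidylethanolamine-binding proteins, was at −0.33, with 72.6 and 72.9 FPKM, so that input and immunoprecipitate were nearly equal. The others below the median gene were *mRpL51* at −0.25, *mRpS14*, *mRpL19* at −0.16, *mRpS9*, *mRpS25* at −0.09 and *mRpS31* at −0.06. *mRpL44*, which encodes a protein with a ribonuclease III fold, had 74.4 and 93.8 FPKM and lay at 0.00.

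**Figure D2:**
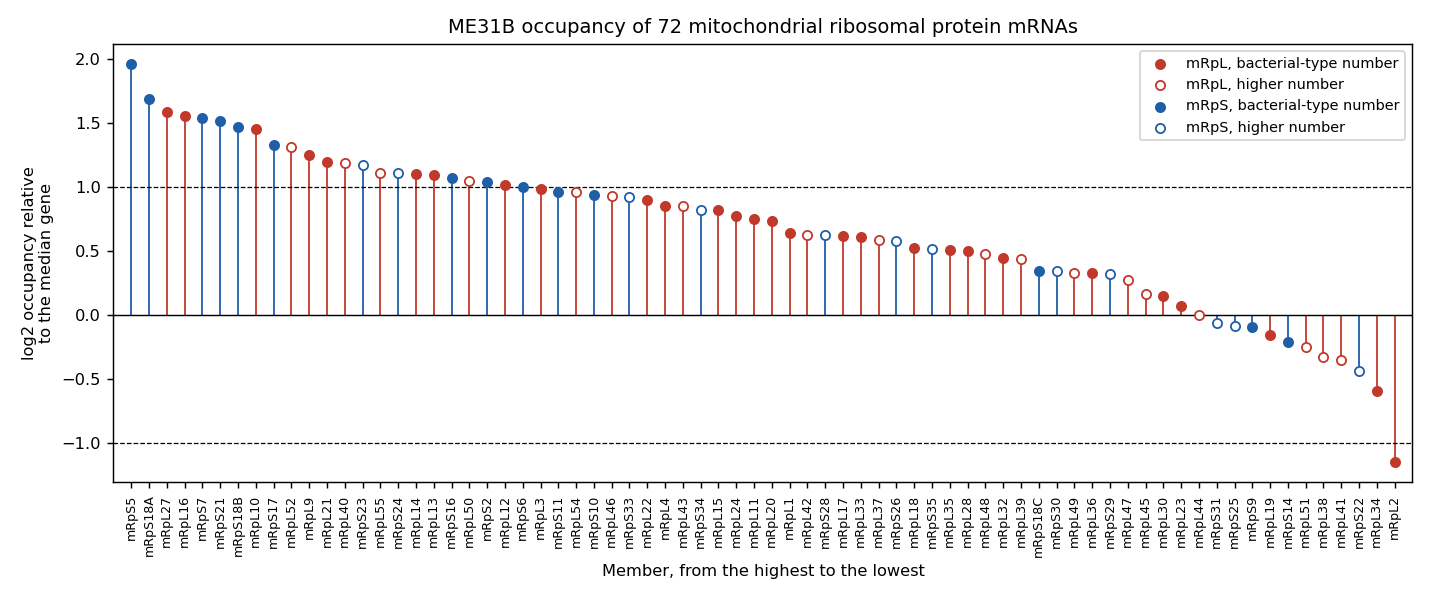
Log2 occupancy relative to the median gene (y axis) of each of the 72 members, ordered from highest to lowest (x axis), in red for mRpL and blue for mRpS. Filled points mark numbers shared with bacterial ribosomal proteins and open points higher numbers. Dashed lines mark 2-fold, with 23 members above the upper one and 1 below the lower one.

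The 5 most abundant in the input were *mRpS18A*, *mRpS21*, *mRpS10*, *mRpL34* and *mRpL42*, with occupancies from −0.59 to 1.69. *mRpL42* had 213 FPKM in input RNA and 415 FPKM after precipitation, and was at 0.63. The 5 least abundant were *mRpL41*, *mRpL2*, *mRpS6*, *mRpL37* and *mRpL16*, with occupancies from −1.15 to 1.56. *mRpL37* had 46.0 and 87.2 FPKM, and was at 0.59. Each end of the abundance range thus held members both well above and below the median gene. Set against the median of protein-coding genes of like input, in 10 classes, 11 members were 2-fold above, where 8.6% of those genes were, and 1 was 2-fold below, where 13.5% were.

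Between the subunits, the small-subunit mRNAs had the higher median occupancy, 0.93 compared with 0.63 for the large subunit, a difference of 0.30 on the log2 scale. Among mRpS genes 11 of 26 passed the upper 2-fold limit, compared with 12 of 46 mRpL genes, where 9.48% of all genes tested did. The ranges overlapped over most of their length, from −0.44 to 1.96 for mRpS and from −1.15 to 1.59 for mRpL, and 5 mRpS and 6 mRpL genes were below the median gene. Input levels were alike, with medians of 98.0 FPKM for mRpS and 93.1 FPKM for mRpL. With *mRpS18A* and *mRpS30* counted as large-subunit genes, the difference was again 0.30. It was 0.07 among the 30 members that overlap no other annotated gene. Set against the span classes described further on, the medians were 0.38 for mRpS and 0.21 for mRpL. By that measure *mRpS5*, *mRpS18A*, *mRpL10*, *mRpL16* and *mRpL27* were at least 2-fold above, where 7.1% of all protein-coding genes were.

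Members were then separated by their numbers. Symbols up to mRpL36 and mRpS21 carry numbers shared with bacterial ribosomal proteins, while higher numbers were mostly given to proteins without a bacterial counterpart. Among small-subunit genes, 9 of 14 with a bacterial-type number passed the upper 2-fold limit, compared with 2 of 12 with a higher number, *mRpS23* and *mRpS24*. Over all genes tested 9.48% passed that limit. Medians of the bacterial-type and higher-numbered mRpS genes were 1.05 and 0.55. Set against the span classes described further on, these medians were 0.55 and 0.11. Among large-subunit genes the counts were 8 of 28 and 4 of 18, and the medians 0.74 and 0.53. In each subunit the bacterial-type group had the higher median, by 0.51 in the small and 0.21 in the large subunit, and in each the ranges overlapped. The bacterial-type mRpS genes were also the more abundant, with a median input of 128 FPKM compared with 93.3 FPKM for the higher numbers. They more often had a span to themselves, which held for 8 of 14 genes with a median of 1.40, and for 3 of 12 higher-numbered genes with a median of 0.52. The 6 bacterial-type genes that share part of their span had a median of 0.69 and the 9 such higher-numbered genes 0.63. The part of abundance, overlap and span in these differences was not tested. Some higher-numbered proteins have bacterial counterparts by the nomenclature used for mammals, among them mRpS24, mRpS28 and mRpL55. With these 3 moved to the bacterial-type group, the difference over both subunits was 0.42 in place of 0.33. Other such members were not moved, so the value of 0.42 holds only for this choice.

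Spans were shared with other genes for 42 members. For 34 of them the shared part was under 10% of the span, from 3 to 104 bp. Members without any overlap had a median of 0.96, with 13 of 30 in the high class and none in the low class. Those with overlap had a median of 0.57, with 10 of 42 high and 1 low. Over all genes tested, 9.48% were high and 15.2% low. For the 8 members that share at least 10%, the median was 0.56. Among them *mRpS21* shares 43.8% of its span with CG8870, which had only 0.27 FPKM in the input. *mRpS9* shares 79.8% of a span of 13391 bp, the longest of the members, with other genes, among them *wtrw* and *ArgRS-m*. Because it is unknown whether the counting used strand, reads in shared parts may have been assigned to either gene.

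The members are short genes, with a median span of 885 bp compared with 2676 bp for the protein-coding genes tested. Spans include introns and are not transcript lengths. Occupancy was higher for short genes in general, with a median of 0.57 for 655 protein-coding genes under 1000 bp and of 0.35 for 1767 genes from 1000 to 2000 bp. The 42 members in the shorter class had a median of 0.89 and the 27 in the longer class one of 0.59, each above the median of that class by less than the 0.74 seen against all genes. In the shorter class 40.5% of members were at least 2-fold above the median gene, where 22.9% of protein-coding genes of that class were. In the longer class 18.5% of members were, where 14.3% of protein-coding genes of that class were. When each gene was set against the median of its span class, the members' median was 0.28. By that measure 5 members were at least 2-fold above the class median, where 7.1% of all protein-coding genes were, namely *mRpS5* at 2.40, *mRpL27* at 1.24, *mRpL16* at 1.21, *mRpS18A* at 1.12 and *mRpL10* at 1.10. At least 2-fold below were *mRpL2* at −1.50 and *mRpL34* at −1.17, where 11.3% of all protein-coding genes were. The share of members 2-fold above their class was therefore near that of other genes, and the share 2-fold below was lower. Within the members, span and log2 occupancy had a Spearman rho of −0.14 over 72 genes, compared with −0.41 over 6839 genes tested. For the 26 mRpS genes alone the rho was −0.35, and for the 46 mRpL genes 0.03. The part of span in the position of the members was not tested.

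**Figure D3:**
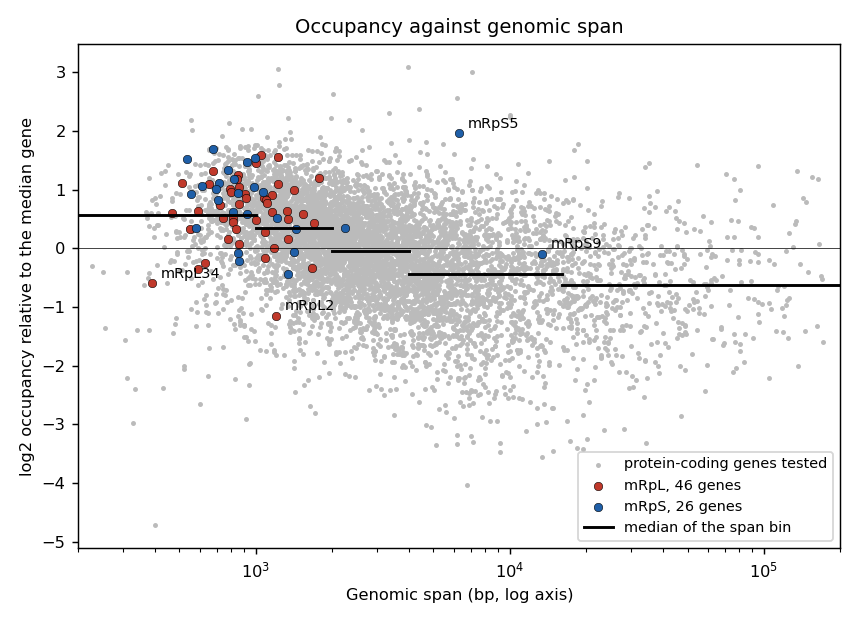
Log2 occupancy relative to the median gene (y axis) against genomic span in bp (x axis, log scale) for protein-coding genes tested (grey), mRpL genes (red) and mRpS genes (blue). Horizontal bars mark the median of each span class, 0.57 for genes under 1000 bp and 0.35 from 1000 to 2000 bp. *mRpS5* lies far above its class, and *mRpL2* and *mRpL34* lie below theirs.

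By chromosome arm, members were spread over 5 arms. The 12 members on 2L had the highest median, 1.07, with 7 at least 2-fold above the median gene, among them *mRpL27*, *mRpS7*, *mRpS18B* and *mRpL10*. The 11 on X had the lowest, 0.35, with 2 above the limit, *mRpL16* and *mRpL14*. Medians on 2R, 3L and 3R were 0.63, 0.73 and 0.64. The ranges on 2L, from −0.25 to 1.59, and on X, from −0.33 to 1.56, were nearly the same. Over all genes tested 9.48% were at least 2-fold above the median gene. The share among all genes of each arm was not taken.

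A pair of mitochondrial ribosomal proteins carry names that the symbol rule does not take, and both lay within the members' range. *tko*, which encodes the counterpart of bacterial S12 at the decoding site, had 167 FPKM in input RNA and 405 FPKM after precipitation, and stood at 0.94. *bonsai*, the counterpart of S15, had 125 and 308 FPKM, and stood at 0.97. Both were above the members' median.

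Other nuclear genes for mitochondrial gene expression lay nearer to the median gene. By the 2-fold limit, 9.48% of all genes tested were high and 15.2% low. Of 9 mitochondrial translation factors, 1 was at least 2-fold above and none 2-fold below it, with a median of 0.24. The highest was CG4447, annotated as the ribosome recycling factor mRRF1, at 1.27, from 47.0 to 143 FPKM, and the lowest *ico*, an elongation factor, at −0.40, from 45.0 to 43.1 FPKM. Of 15 mitochondrial aminoacyl-tRNA synthetases, which charge tRNAs, none was high and 2 were low by the 2-fold limit, with a median of −0.07. They lay between −1.67 for *Aats-ala-m*, with 15.7 and 6.18 FPKM, and 0.72 for CG6796, annotated as AsnRS-m, with 7.53 and 15.6 FPKM. Of 12 genes for maintenance and expression of mitochondrial DNA, 2 were high and 3 low, with a median of 0.15. *SLIRP1*, related to an RNA-stabilizing factor of mammalian mitochondria, was at 1.99, from 33.4 to 167 FPKM, and *tam*, the mitochondrial DNA polymerase, at −1.20, from 19.7 to 10.8 FPKM. For 69 nuclear genes encoding respiratory chain subunits or ATP synthase, 5 were high, 6 were low and the median was 0.10, between *blw* at −2.15 and *UQCR-11* at 1.78. These groups also differed from the mitochondrial ribosomal genes in span, with medians of 1831 bp for translation factors, 2727 bp for synthetases, 1592 bp for mitochondrial DNA genes and 1226 bp for the respiratory chain.

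The cytosolic ribosomal proteins, the other ribosome of the cell, lay on the opposite side. Of 86 such genes, 47 were low by the 2-fold limit and none was high, where 15.2% and 9.48% of all genes tested were. Their median was −1.10. The highest, *RpL24-like* at 0.74, was about level with the median of the mitochondrial members, and the lowest was *RpLP1* at −2.91. Only 4 of the 86 were above the median gene. Their median input was 3658 FPKM, far above that of any mitochondrial member, so that abundance and the kind of ribosome cannot be told apart in this comparison.

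**Figure D4:**
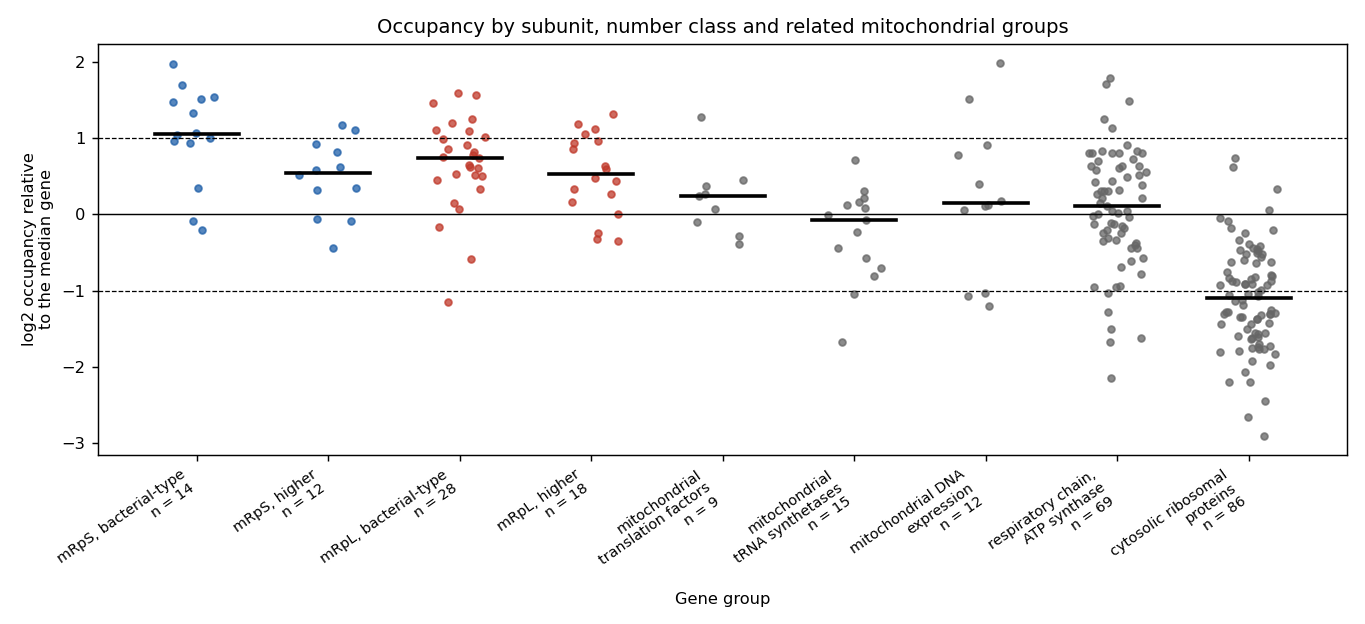
Log2 occupancy relative to the median gene (y axis) for single genes (points) in each group (x axis), with black bars for group medians and dashed lines for 2-fold. The bacterial-type mRpS genes have a median of 1.05 and the other member groups medians from 0.53 to 0.74, while related mitochondrial groups lie between −0.07 and 0.24 and cytosolic ribosomal proteins at −1.10.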

How the data were processed

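RNA from 1 input and 1 ME31B immunoprecipitate library of stage 14 oocytes was depleted of rRNA, prepared with a stranded kit and sequenced from one end. The submitters' notes name bcl2fastq 2.17, STAR 2.5.2a, Cufflinks 2.2.1 and the dm6 build, and the methods describe trimming, alignment by STAR and gene quantification by Cufflinks. The authors deposited FPKM per gene. FPKM from Cufflinks are scaled within each library, so ratios have no fixed zero and were centred. Read totals, the annotation release and the use of strand are unknown. The columns sum to 1072660 and 1131582 FPKM.

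Log2 ratios were taken without a pseudocount for genes above 0.5 FPKM in both libraries and centred on the median, with pandas 2.3.3 under Python 3.11.15. The counting rule was checked on planted values. Spans, arms and coordinates came from the RefSeq table of Release 6, the assembly of dm6, which matched all 72 members and 6839 of 6886 genes. Span classes had limits at 1000, 2000, 4000, 8000 and 16000 bp. Members and lists were chosen with earlier results of these data known. Named members were the 12 highest and 12 lowest occupancies, the 5 highest and 5 lowest input values and lettered sets, and for other lists the highest and lowest gene with an input of at least 1 FPKM. Members named for their place in the ribosome, the remaining ones above the 2-fold limit and those between it and the median gene were chosen after their values were seen, as was the grouping by place, which follows the bacterial ribosome.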

Additional observations from a re-analysis of the deposited data

How the results depend on the processing

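No paired analysis was possible because input and precipitate were each sequenced as 1 library. With no filter and pseudocount 0.5, 37 members were 2-fold above the median gene and 0 below it, where 8.66% and 3.93% of all genes were. The median gene then had a log2 occupancy of 0, so that nothing was subtracted. The counts of members without centring were the same, where 20.3% of genes tested were 2-fold above and 9.15% below. With the filter kept, pseudocount 0.5 gave 23 and 1, and the share over all genes was not taken for this setting. Leaving out members that overlap any gene gave 13 and 0 of the 30 remaining, where 9.48% and 15.2% of all genes tested were. Centring within span classes gave 5 and 2, where 7.1% and 11.3% of protein-coding genes were, so the share above was near that of other genes. Centring within 10 classes of input FPKM gave 11 above and 1 below, where 8.6% and 13.5% of protein-coding genes were. A 1.5-fold rule gave 43 and 2, where 23.8% and 26.3% of all genes tested were. A 3-fold rule gave 3 and 0, where 1.79% and 5.95% were. Other fold limits, fewer members and the loss of centring change counts by construction, and for the span and input classes the cause was not tested. The median of all members ranged from 0.28 (span classes) to 1.08 (no centring). The mitochondrial synthetase median changed sign, to 0.25 without a filter, 0.26 without centring and 0.0547 within input classes. Within span classes, medians became −0.084 for translation factors, −0.18 for mitochondrial DNA genes and −0.20 for the respiratory chain, which was at −0.0055 within input classes. The difference of mRpL and mRpS medians kept its sign in all of these alternatives that give one, as did that of the number classes. The 10% limit on overlap and the moves of 2 members between subunits and of 3 members between number classes were chosen after seeing the data. Depth is unknown, so counting error could not be given.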
